A study of Rattus norvegicus with 20 samples.

Results

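Lysosomes break down proteins, lipids, glycans and glycogen with a set of acid hydrolases, in a lumen that a proton-pumping vacuolar ATPase keeps acidic. Autophagy wraps cell contents in a double membrane, which the lipid-bound protein LC3 coats and the adaptor sequestosome loads with cargo, and delivers them to the lysosome. Many of these genes carry a CACGTG-type element near their start that transcription factor EB binds, and in heart muscle the pathway is known for clearing mitochondria and glycogen. The genes described here are a list of 39 names of lysosome and autophagy genes, taken by name, with earlier results of these data known. Of these, 28 were found under that name on the array, among 35561 gene names in all, and the probe with the highest mean signal stood for each gene. For 27 of the 28 the signal could be tested, together with 27787 genes of the whole array. Atp6v1h, a subunit of the ATP-splitting sector of the proton pump, was well above background on 7 arrays and on all arrays of no group, so it was not tested. Of the 27 genes, 26 gave a signal well above background on each of the 20 arrays, and Gusb (beta-glucuronidase) on 18. The names not found were Atp6v1a, Ctsa, Ctsl1 (an older name of Ctsl), Gabarapl1, Gla, Glb1, Lipa, Naglu, Npc1, Sgsh and Tfeb.

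The samples were primary heart cultures of neonatal rats, grown for 1 day and then exposed to celecoxib, which inhibits cyclo-oxygenase-2. Total RNA was hybridised to single-colour Agilent arrays: 2 arrays of untreated cultures, and 3 arrays for each of 6 celecoxib groups, in which a concentration labelled 1, 1/5 or 1/25 (relative units) was left on for 6 h or 24 h. The absolute concentrations, the strain and the vehicle are not given in the sources used here, and the untreated arrays carry no time, so they are not matched to either exposure time. Nothing in the labels says that the arrays of a group came from separate cultures, so the p-values measure only the spread between these arrays, which may be technical. Cardiomyocyte markers were present: all 12 markers found on the array, such as Myh6, Tnnt2 and Actc1, were well above background on all 20 arrays. Markers of fibroblasts (Col1a1) and of macrophages (Cd68) were also above background on all 20 arrays, as were Kdr (endothelium) and Alas2 (erythroid cells). Of the same marker lists, Itgam (leukocytes), Emcn (endothelium) and Hbb (erythroid cells) were well above background on 0 arrays. The endothelial markers Tek, Tie1 and Vwf were so on 2 arrays each. For the macrophage markers Csf1r and Emr1 it was 11 and 8 arrays, and for the fibroblast marker Lum 14. Smooth muscle markers such as Myh11 and Tagln were well above background on all 20. Fewer cells of a type and less RNA per cell cannot be told apart in such bulk samples.

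Arrays were scanned on 2 days, and this split was the main axis of variation: of the 30.1% of variance along the first axis of a principal component analysis, 97.9% separated the days. Scan day 1 held 14 arrays, namely both untreated, all of 24 h, the first and second of concentration 1 at 6 h and the first of 1/25 at 6 h. Scan day 2 held the other 6, all at 6 h: the third of concentration 1, all of 1/5, and the second and the third of 1/25. Every comparison therefore carries scan day as a block, whose size rests on concentration 1 and 1/25 at 6 h, the only groups on both days. Per array, 63.6% to 83.2% of probes were well above background and 5.74% to 9.21% were saturated, and the number of arrays limits the precision. The 75th percentile was 4.07 times the median on the first untreated array, the lowest of all, and 7.0 times on the third array of 1/25 at 6 h, the highest. Levels below are log2 signals relative to the array's 75th percentile, in replicate order. They compare arrays for 1 probe, never one gene with another. A change is called where its adjusted p in limma (Benjamini-Hochberg over all genes) is below 0.05.

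Promoters are shown because the transcription factor EB element can be searched in them. RefSeq promoters (build GRCr8, from 250 bases before the start of the gene to 50 after it, on the strand of the gene) matched 22 of the 28 genes. CACGTG, which reads the same on both strands, was found in 6 of the 22 (27.3%) and in 6.65% of all 27457 promoters of that length. The longer TCACGTGA, which contains it and is also its own reverse complement, was in 4 of the 22 (18.2%) and in 0.867% of all. A match is a run of letters and not a measured binding site. The 4 promoters with TCACGTGA belong to the membrane glycoprotein gene Lamp1 (chr16:83075014-83075313, minus strand), the aspartic protease gene Ctsd (chr1:206968772-206969071, minus strand), the ion channel gene Mcoln1 (chr12:6358008-6358307, plus strand) and the proton pump gene Atp6v0d1 (chr19:50357199-50357498, minus strand). They are given 5′ to 3′, with CACGTG in capitals.
Lamp1: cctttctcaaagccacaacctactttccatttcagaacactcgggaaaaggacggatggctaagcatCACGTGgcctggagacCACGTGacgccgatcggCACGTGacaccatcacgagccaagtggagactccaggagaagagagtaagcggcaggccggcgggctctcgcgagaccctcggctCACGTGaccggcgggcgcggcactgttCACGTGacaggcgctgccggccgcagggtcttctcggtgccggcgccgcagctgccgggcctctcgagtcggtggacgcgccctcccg
Ctsd: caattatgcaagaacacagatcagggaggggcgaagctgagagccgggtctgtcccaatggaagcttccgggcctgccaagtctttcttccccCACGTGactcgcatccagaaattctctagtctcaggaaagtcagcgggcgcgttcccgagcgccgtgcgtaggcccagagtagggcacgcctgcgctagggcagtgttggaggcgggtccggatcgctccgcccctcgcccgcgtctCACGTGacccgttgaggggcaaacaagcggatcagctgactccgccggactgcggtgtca
Mcoln1: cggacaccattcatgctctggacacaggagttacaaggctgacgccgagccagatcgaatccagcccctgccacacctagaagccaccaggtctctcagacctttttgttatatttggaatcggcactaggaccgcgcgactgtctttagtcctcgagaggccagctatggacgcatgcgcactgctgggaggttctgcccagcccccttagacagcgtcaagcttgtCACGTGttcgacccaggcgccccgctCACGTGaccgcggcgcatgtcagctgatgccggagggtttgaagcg
Atp6v0d1: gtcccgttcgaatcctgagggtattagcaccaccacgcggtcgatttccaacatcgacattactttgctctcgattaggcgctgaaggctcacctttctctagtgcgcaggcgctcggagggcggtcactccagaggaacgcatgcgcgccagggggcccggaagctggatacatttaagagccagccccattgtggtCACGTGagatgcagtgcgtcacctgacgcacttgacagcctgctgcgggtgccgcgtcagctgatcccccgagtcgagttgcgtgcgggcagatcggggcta
Lamp1 held 5 copies of CACGTG, whose first letters lie at -183, -167, -150, -65 and -38 from the start. Ctsd held 2, at -157 and -10, and Mcoln1 held 2, at -22 and 4. Atp6v0d1 held 1 at -52, the tetraspanin gene Cd63 held 1 at -190, and the acid alpha-glucosidase gene Gaa held 1 at -67.

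The only member of the list called against untreated in any group was Psap. It encodes prosaposin, the precursor of the saposins that help hydrolases take sphingolipids apart. Its single probe lies at chr20:27633391-27633450 (build rn3, plus strand), is shown because every Psap value rests on it, and reads as follows.
Psap probe: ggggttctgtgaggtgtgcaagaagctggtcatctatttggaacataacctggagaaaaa
The Psap level was 1.84 and 1.00 on the untreated arrays. At 6 h it was -0.07, 0.33 and 1.09 with concentration 1, 1.31, 1.28 and 1.07 with 1/5, and -0.10, 1.02 and 0.10 with 1/25. At 24 h it was 1.01, 0.84 and 0.41 with concentration 1, 0.44, 0.61 and 0.92 with 1/5, and 1.03, 0.43 and 0.91 with 1/25. The arrays of scan day 1 at 6 h, at -0.07, 0.33 and -0.10, lay below both untreated arrays and below every 24 h array. With scan day as a block, Psap fell by 1.24 ± 0.33 (SE, log2) at concentration 1 for 6 h, which is 2.36-fold, with an adjusted p of 0.0363 in limma. With 1/25 for 6 h it fell by 1.62 ± 0.38, which is 3.07-fold (adjusted p in limma 0.0171). The group of 1/5 at 6 h lay wholly on scan day 2, and its change of -1.01 ± 0.44 was not called (adjusted p in limma 0.209). At 24 h the changes were -0.67, -0.76 and -0.63 for 1, 1/5 and 1/25, with adjusted p in limma of 0.34, 0.19 and 0.358. Scan day 2 lay 0.81 ± 0.30 above scan day 1 for Psap (adjusted p in limma 0.0517). That difference passed with slide as a random block (0.80, adjusted p in limma 0.0455), without either untreated array (0.0381 each), without the third array of concentration 1 at 24 h (0.0495), without the third array of 1/25 at 6 h (1.03, 0.0142) and without both that array and the first untreated one (1.03, 0.00776). Without the scan day block the changes at 6 h were -0.97 (adjusted p in limma 0.208) and -1.08 (0.0891). Within scan day 1, which holds only 1 array of 1/25 at 6 h, these changes were -1.29 (adjusted p in limma 0.0518) and -1.52. Without the first untreated array, the higher of the pair, they were -0.82 (adjusted p in limma 0.41) and -1.20 (0.167), so neither call was kept. Leaving out the first or the third array of concentration 1 at 6 h, the second of 1/5 at 6 h or the first of 1/25 at 6 h also ended the call at concentration 1 (adjusted p in limma 0.151, 0.0509, 0.0502 and 0.0509), and leaving out the last of these ended that at 1/25 (0.163).

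Counted over the list, 0 members were called higher and 1 lower at concentration 1 for 6 h, where 8.21% of all genes were called (1.78% higher, 6.43% lower). With 1/25 for 6 h the counts were again 0 higher and 1 lower, beside 11.5% of all genes (2.62% higher, 8.92% lower). No member was called with 1/5 for 6 h, where 1.14% of all genes were, nor at 24 h with 1, 1/5 or 1/25, where 0.465%, 1.42% and 0.857% were. The unadjusted p was below 0.05 for 4, 2 and 8 of the 27 members at 6 h with 1, 1/5 and 1/25, and for 2, 5 and 1 at 24 h. As shares these were 14.8%, 7.41% and 29.6%, then 7.41%, 18.5% and 3.7%, each below the share of all genes, at 29.6%, 20.8% and 33.6%, then 15%, 21.1% and 15.6%. The median change of the 27 members from untreated was 0.00, 0.10 and 0.08 at 6 h and 0.09, 0.15 and 0.07 at 24 h, in the same order. Over all genes tested these medians were -0.02, -0.01 and -0.10, then 0.00, -0.02 and -0.04. Without the scan day block, the medians of the members at 6 h were -0.08, -0.36 and -0.48, while those of all genes were -0.07, -0.19 and -0.18. The called members were then 0, 0 and 2, the latter being Gaa and Mcoln1, both lower, beside 0.429%, 6.52% and 6% of all genes. The sign of the median at 1/5 and 1/25 for 6 h thus turned with the block, and these groups hold 5 of the 6 arrays of scan day 2.

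**Figure D1:**
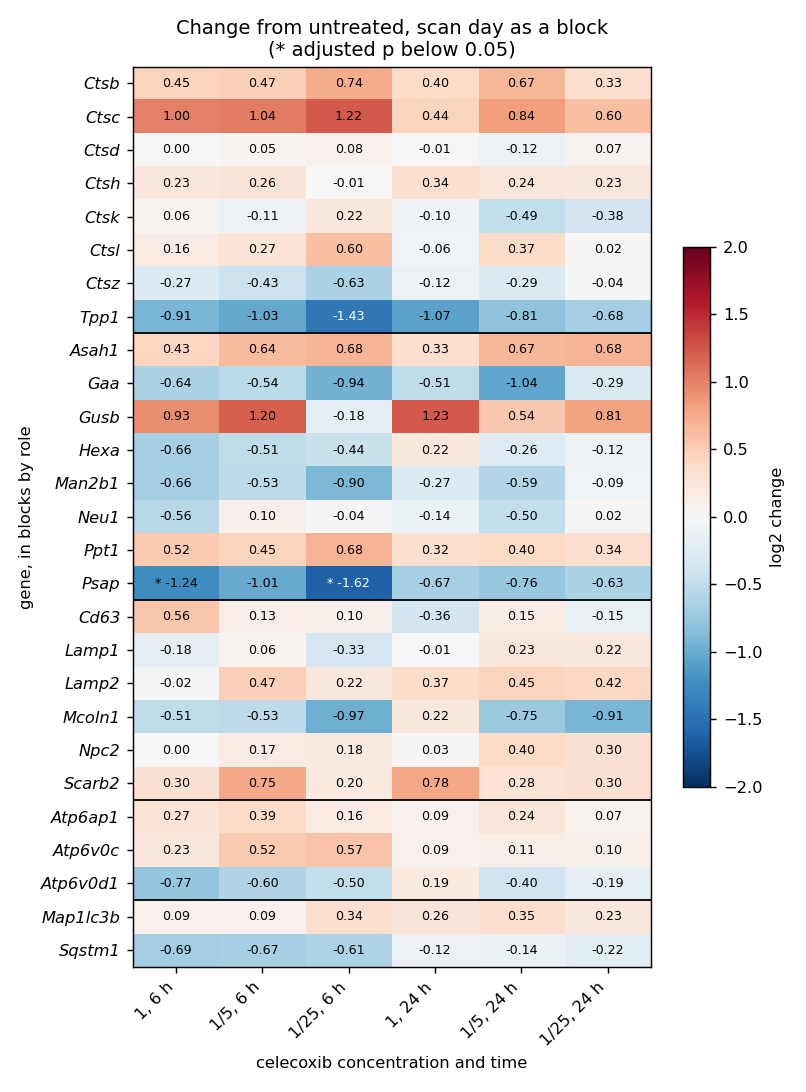
Colour map of the log2 change from untreated for the 27 tested members (rows, in blocks of proteases, other hydrolases and their cofactors, membrane and sterol proteins, proton pump and autophagy) in the 6 celecoxib groups (columns), with scan day as a block. Red is higher, blue lower, and an asterisk marks an adjusted p below 0.05: it stands in the Psap row alone, at -1.24 and -1.62.

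Among the 8 proteases tested, 0 were called in any comparison with untreated. Their median change was 0.11, 0.15 and 0.15 at 6 h and -0.04, 0.06 and 0.04 at 24 h. Ctsc, cathepsin C, which activates granule serine proteases, was 0.76 and 1.55 on the untreated arrays. At 6 h Ctsc was 2.19, 1.89 and 1.33 with concentration 1, 1.23, 0.87 and 1.32 with 1/5, and 2.61, 0.81 and 1.61 with 1/25, and its first array of 1/25 was the highest of all 20. At 24 h Ctsc was 1.53, 1.60 and 1.68 with concentration 1, 2.19, 1.56 and 2.23 with 1/5, and 1.45, 2.24 and 1.57 with 1/25, so that all of 1/5 lay above both untreated arrays, by 1.56 against 1.55 at the closest. The estimated change of Ctsc at 6 h was 1.00 ± 0.35, 1.04 ± 0.46 and 1.22 ± 0.40 with 1, 1/5 and 1/25, and the adjusted p in limma was 0.0839, 0.218 and 0.0563. Without the second untreated array, the higher of the pair, Ctsc was called higher with concentration 1 (1.40, adjusted p in limma 0.0334) and with 1/25 (1.62, 0.0233). With 1/25 it was also called without the second array of concentration 1 at 6 h (adjusted p in limma 0.0462) or the second of 1/25 (0.0184). The scan day difference of Ctsc was -1.05, and without the block its changes at 6 h were 0.65, -0.02 and 0.52.

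Tpp1, tripeptidyl peptidase, which trims peptides from their amino end and is lost in a childhood neuronal storage disease, was 0.18 and -0.98 on the untreated arrays. Tpp1 has no value on the first array of concentration 1 at 6 h, whose spot was marked as an outlier. The 6 h values of Tpp1 were -0.73 and -1.60 with concentration 1, -0.99, -0.95 and -1.47 with 1/5, and -2.42, -0.33 and -2.15 with 1/25. At 24 h the Tpp1 values were -1.24, -1.48 and -1.70 with concentration 1, -1.37, -1.41 and -0.86 with 1/5, and -1.02, -1.32 and -0.90 with 1/25. The untreated pair lay farther apart than the arrays of any celecoxib group but 1/25 at 6 h, and the first untreated array was above all others. Tpp1 was estimated at -0.91 ± 0.62, -1.03 ± 0.73 and -1.43 ± 0.62 at 6 h and at -1.07, -0.81 and -0.68 at 24 h, with adjusted p in limma from 0.126 to 0.57.

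Ctsb, a cysteine protease that is among the main cathepsins of most cells, was saturated on all 20 arrays, so its differences are compressed. Its levels ran from 1.76 to 2.97, and were 2.19 and 2.24 on the untreated arrays. The changes of Ctsb at 6 h were 0.45, 0.47 and 0.74 ± 0.26, the last with an adjusted p in limma of 0.0758. Its group means at 6 h, which carry no block, were 2.39, 1.87 and 2.41, against 2.21 untreated. Ctsd, saturated on 5 arrays, changed by between -0.12 and 0.08 in the 6 groups. The other proteases Ctsh, Ctsk, Ctsl and Ctsz had changes between -0.63 and 0.60, none of them called. Ctsl has a second, dimmer probe, whose change was of the opposite sign in all 6 groups (for example 0.60 and -0.51 with 1/25 at 6 h).

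The other hydrolases and their cofactors, 8 tested genes with Psap among them, had a median change of -0.60, -0.21 and -0.31 at 6 h and 0.04, -0.38 and -0.03 at 24 h. Gaa, which frees glucose from glycogen and is lacking in Pompe disease, was -0.60 and -0.96 on the untreated arrays. At 6 h Gaa was -1.34, -1.43 and -1.85 with concentration 1, -1.52, -1.69 and -1.85 with 1/5, and -1.78, -1.82 and -2.30 with 1/25, all below both untreated arrays. At 24 h Gaa was -1.10, -0.88 and -1.87 with concentration 1, -2.20, -1.56 and -1.69 with 1/5, and -0.91, -1.23 and -1.08 with 1/25, and only 1/5 lay wholly below them. The Gaa change was -0.64 ± 0.30, -0.54 ± 0.40 and -0.94 ± 0.34 at 6 h, with adjusted p in limma of 0.169, 0.443 and 0.0768. At 24 h it was -0.51, -1.04 ± 0.29 and -0.29, with adjusted p in limma of 0.424, 0.0761 and 0.671. Without the block the change with 1/25 at 6 h was -1.19 and passed (adjusted p in limma 0.0415). Both untreated arrays belong to scan day 1. Gaa averaged -1.33 on day 1 arrays and -1.84 on day 2 arrays, the latter all at 6 h.

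Hexa, the alpha chain of the enzyme that cuts ganglioside and is lost in Tay-Sachs disease, was 0.09 and 0.16 on the untreated arrays. Hexa was -0.61, -0.78 and -0.27 with concentration 1, -0.49, -0.30 and -0.57 with 1/5, and 0.02, -0.14 and -0.95 with 1/25 at 6 h, all below the untreated arrays. It was 0.70, 0.69 and -0.33 with concentration 1, -0.30, 0.01 and -0.11 with 1/5, and 0.15, -0.02 and -0.11 with 1/25 at 24 h, where only 1/5 lay wholly below them. The Hexa change was -0.66 ± 0.34, -0.51 ± 0.45 and -0.44 ± 0.38 at 6 h, and the adjusted p in limma was 0.204, 0.519 and 0.423. Hexa averaged -0.03 on day 1 arrays, which include both untreated ones, and -0.45 on day 2 arrays, all at 6 h. Ppt1, which strips palmitate from proteins and was saturated on 2 arrays, stood at 1.85 and 2.26 on the untreated arrays, and its range over all arrays was 1.33 to 2.78. Its change was 0.52, 0.45 and 0.68 at 6 h and 0.32, 0.40 and 0.34 at 24 h, none called. The group means of Ppt1 at 6 h, which carry no block, were 2.29, 1.62 and 2.15, against 2.06 untreated. Man2b1, the acid alpha-mannosidase, had changes of -0.66, -0.53 and -0.90 at 6 h (lowest adjusted p in limma 0.261). The sialidase gene Neu1 had changes from -0.56 to 0.10. Asah1, the acid ceramidase, had estimates of 0.43, 0.64 and 0.68 at 6 h from its brightest probe and -0.59, -0.64 and -0.70 from its other probe. At 24 h both Asah1 probes were above 0. Gusb had estimates from -0.18 to 1.23, each with an SE of at least 0.56.

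**Figure D2:**
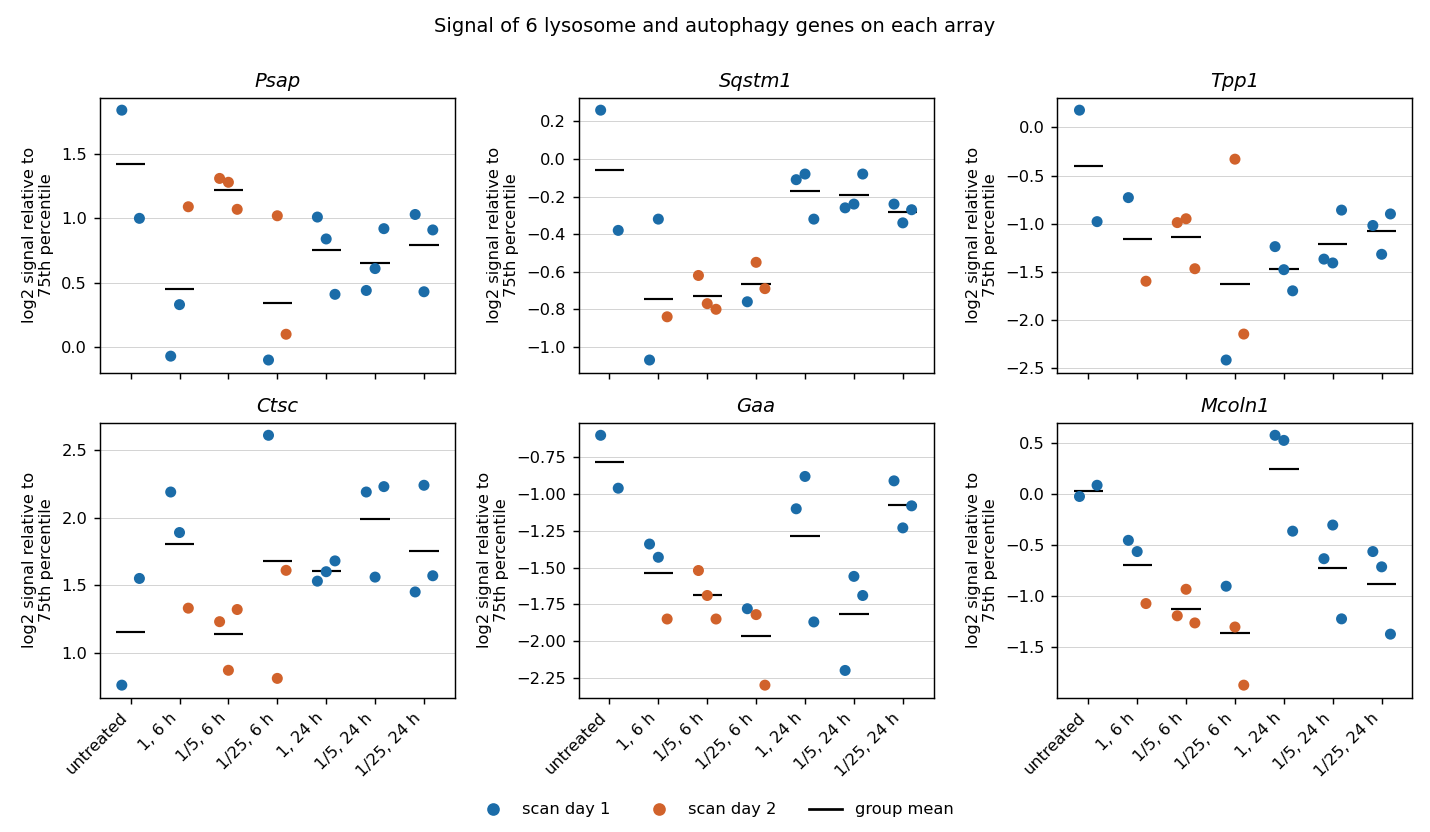
Log2 signal relative to the 75th percentile of the array (vertical axis) for Psap, Sqstm1, Tpp1, Ctsc, Gaa and Mcoln1 in the 7 groups (horizontal axis), 1 point for each array, coloured by scan day, with a bar at the group mean. The first untreated array stands at 1.84 for Psap and at 0.18 for Tpp1, above all the others, and the Gaa values at 6 h all lie below -0.96.

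Of 6 membrane and sterol proteins tested, 0 were called against untreated. Mcoln1, the cation channel mucolipin that lets calcium out of the lysosome, was -0.02 and 0.09 on the untreated arrays. At 6 h Mcoln1 was -0.45, -0.56 and -1.07 with concentration 1, -1.19, -0.93 and -1.26 with 1/5, and -0.90, -1.30 and -1.87 with 1/25, all below the untreated pair. At 24 h Mcoln1 was 0.58, 0.53 and -0.36 with concentration 1, -0.63, -0.30 and -1.22 with 1/5, and -0.56, -0.71 and -1.37 with 1/25, and the groups of 1/5 and 1/25 lay below the untreated pair while 2 arrays of concentration 1 lay above it. The change of Mcoln1 was -0.51 ± 0.35, -0.53 ± 0.46 and -0.97 ± 0.39 at 6 h, with adjusted p in limma of 0.322, 0.514 and 0.106. At 24 h it was 0.22, -0.75 and -0.91 ± 0.33, with adjusted p in limma of 0.787, 0.214 and 0.192. Without the block the estimate for 1/25 at 6 h was -1.39 and passed (adjusted p in limma 0.044). Both untreated arrays belong to scan day 1. Mcoln1 averaged -0.42 on day 1 arrays and -1.27 on day 2 arrays, the latter all at 6 h.

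Lamp1, a heavily glycosylated protein that lines the lysosomal membrane, was 0.03 and 0.40 on the untreated arrays. It was -0.28, 0.09 and -0.11 with concentration 1, 0.46, -0.22 and -0.64 with 1/5, and 0.15, -0.23 and -1.08 with 1/25 at 6 h and 0.82, 0.30 and -0.52 with concentration 1, 0.21, 0.83 and 0.30 with 1/5, and 0.33, 0.05 and 0.93 with 1/25 at 24 h. Each celecoxib group overlapped the untreated arrays, and the changes ran from -0.33 to 0.23. Lamp2, its relative that also serves chaperone-mediated autophagy, had changes from -0.02 to 0.47. Scarb2, the receptor that carries glucocerebrosidase to the lysosome, was -1.37 and -1.0 on the untreated arrays and -0.24, -0.28 and -0.68 with concentration 1 at 24 h, all of which lay above the pair. That change, 0.78 ± 0.31, had an adjusted p in limma of 0.243. Npc2, the soluble carrier of cholesterol in the lysosome, had changes from 0.00 to 0.40, and Cd63 from -0.36 to 0.56.

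Of the proton pump, 3 genes were tested and 0 called against untreated. Atp6v0c, which forms the proteolipid ring of the membrane sector and was saturated on 7 arrays, had changes of 0.23, 0.52 and 0.57 ± 0.27 at 6 h (adjusted p in limma 0.519, 0.352 and 0.146) and of 0.09 to 0.11 at 24 h. Its group means at 6 h, which carry no block, were 2.37, 2.07 and 2.42, against 2.42 untreated. Atp6v0d1, the subunit that joins the membrane sector to the rotor stalk, was 0.25 and 0.61 on the untreated arrays. At 6 h Atp6v0d1 was -0.24, -0.42 and -0.32 with concentration 1, -0.28, -0.02 and -0.12 with 1/5, and -0.08, -0.34 and 0.28 with 1/25. At 24 h Atp6v0d1 was 1.38, 0.74 and -0.26 with concentration 1, 0.01, 0.04 and 0.06 with 1/5, and 0.66, -0.18 and 0.26 with 1/25, a spread from -0.26 to 1.38 within concentration 1 alone. The estimates of Atp6v0d1 at 6 h were -0.77 ± 0.38, -0.60 ± 0.50 and -0.50 ± 0.43, and none was called. Atp6ap1, an accessory protein of the pump that was saturated on 17 arrays, had changes from 0.07 to 0.39.

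In the autophagy group, 0 of 2 tested genes were called against untreated. Sqstm1 (sequestosome, the cargo adaptor) has 5 probes, and on the brightest it was 0.26 and -0.38 on the untreated arrays. At 6 h Sqstm1 was -1.07, -0.32 and -0.84 with concentration 1, -0.62, -0.77 and -0.80 with 1/5, and -0.76, -0.55 and -0.69 with 1/25, below both untreated arrays in every case but the second array of concentration 1. At 24 h Sqstm1 was -0.11, -0.08 and -0.32 with concentration 1, -0.26, -0.24 and -0.08 with 1/5, and -0.24, -0.34 and -0.27 with 1/25, all above the 6 h arrays other than that one. The change from untreated was -0.69 ± 0.25, -0.67 ± 0.33 and -0.61 ± 0.28 at 6 h (adjusted p in limma 0.0915, 0.254 and 0.141) and -0.12, -0.14 and -0.22 at 24 h. The scan day difference of Sqstm1 was 0.00 ± 0.22 on the brightest probe, and without the block its changes at 6 h were -0.68, -0.67 and -0.61. On the other probes the scan day difference ran from -1.33 to 0.59. Without the second untreated array, the lower of the pair, Sqstm1 was called lower with concentration 1 (at -1.0 with an adjusted p in limma of 0.0282) and with 1/25 (-0.93, 0.044) at 6 h, and without the second array of concentration 1 at 6 h it was called lower there (-0.99, 0.0302). The 5 probes, which share a target, gave changes from -1.08 to -0.69 with concentration 1 at 6 h and from -1.14 to -0.61 with 1/25. With 1/5 at 6 h 4 were below 0 and 1 above it, from -1.43 to 0.40. At 24 h the probes ran from -0.94 to 0.06 with concentration 1, from -0.84 to 0.46 with 1/5 and from -0.74 to -0.04 with 1/25. The second brightest probe stayed at -0.78, -0.63 and -0.74 at 24 h, so the size of the change there depends on the probe. None of the 5 passed when all probes were tested, the lowest adjusted p in limma being 0.0972.

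Map1lc3b (LC3B, the protein that marks autophagosome membranes) was 0.24 and 0.10 on the untreated arrays for its brightest probe. At 6 h Map1lc3b was 0.47, 0.21 and -0.43 with concentration 1, -0.20, -0.28 and -0.31 with 1/5, and 0.34, -0.92 and 1.06 with 1/25, and at 24 h it was 0.26, 0.52 and 0.51 with concentration 1, 0.65, 0.82 and 0.08 with 1/5, and 0.67, 0.19 and 0.34 with 1/25. The 3 arrays of 1/25 at 6 h spanned the whole range of the 20 arrays. The brightest probe gave changes of 0.09, 0.09 and 0.34 at 6 h, while the other probes gave -0.57, -0.84 and -0.59, and -0.79, -0.75 and -0.55. Thus the sign at 6 h depends on the probe, and no probe passed (lowest adjusted p in limma 0.0797, over all probes).

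**Figure D3:**
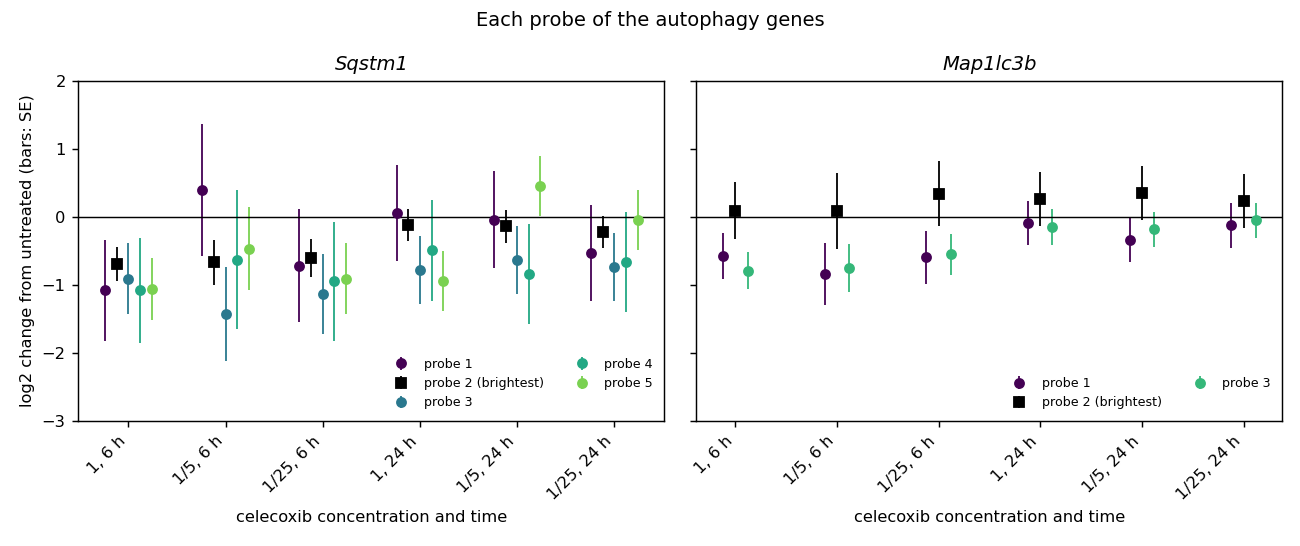
Log2 change from untreated (vertical axis, bars are SE) of each probe of Sqstm1 (5 probes) and Map1lc3b (3 probes) in the 6 celecoxib groups (horizontal axis), with scan day as a block; the black square is the brightest probe. All Sqstm1 probes lie below 0 with concentration 1 and with 1/25 at 6 h, and the Map1lc3b probes lie on both sides of 0 at 6 h.

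Concentration and time gave no call among the members. For concentration 1 against 1/25 at 6 h, 0 of 27 members and 0% of all genes were called, with a median of -0.09 for the members. The estimate farthest from 0 was that of Gusb, 1.11 ± 0.53, and Psap was at 0.38 ± 0.30 (adjusted p in limma 0.9). At 24 h, 0 members and 0.0072% of all genes were called, and Mcoln1 stood highest, with 1.13 ± 0.30 between concentration 1 and 1/25 (adjusted p in limma 0.694). The change of the concentration effect between the times was called for 0 members and 0% of all genes.

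For 24 h against 6 h, 0 members were called at concentration 1, 1/5 or 1/25, where 1.4%, 0.036% and 2.29% of all genes were. At concentration 1 the members nearest to a call were Hexa, with a difference of 0.88 ± 0.31 (adjusted p in limma 0.165), and Atp6v0d1, with 0.95 ± 0.35 (0.182). The difference of Psap was 0.57 ± 0.30, 0.25 ± 0.42 and 0.99 ± 0.35 with 1, 1/5 and 1/25, with adjusted p in limma of 0.365, 0.91 and 0.139. That of Sqstm1 on its brightest probe was 0.57 ± 0.22, 0.54 ± 0.31 and 0.39 ± 0.26, with adjusted p in limma of 0.218, 0.632 and 0.407. Over all Sqstm1 probes it ran from 0.12 to 1.14, from -0.44 to 0.93 and from 0.19 to 0.87. Without the block, Ctsk was called lower at 24 h than at 6 h with 1/5, at -2.51 (adjusted p in limma 0.0297, beside 4.89% of all genes), where all 6 h arrays belong to scan day 2 and all 24 h arrays to scan day 1.

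Between scan days, 1 member was called higher and 8 lower on day 2, that is 9 of 27, beside 32.3% of all genes (15.1% higher, 17.2% lower). The share of members called was close to that of all genes. Without the first array of 1/25 at 6 h, the only array of its group on scan day 1, 2 members were called (Ctsk and Npc2), and without the third array of concentration 1 at 6 h, 5 were. With all arrays in the fit, the median difference of the 27 members was -0.52, against -0.07 over all genes. Ctsk, the collagen-degrading cathepsin of osteoclasts, was called higher by 2.13 ± 0.27 on day 2 (adjusted p in limma 8.15e-05). Ctsk was -2.31 and -1.22 on the untreated arrays. It was -1.74, -1.74 and 0.50 with concentration 1, 0.07, 0.32 and 0.40 with 1/5, and -1.48, 0.41 and 0.69 with 1/25 at 6 h and -1.97, -1.75 and -1.88 with concentration 1, -2.03, -2.36 and -2.35 with 1/5, and -2.55, -1.82 and -2.06 with 1/25 at 24 h. All 14 arrays of day 1 lay between -2.55 and -1.22 and all 6 of day 2 between 0.07 and 0.69, so the days did not overlap. Within the 6 h groups the day 2 arrays followed the same split.

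The members called lower on day 2 were 3 further cathepsins besides Ctsc, the sialidase Neu1, the sterol carrier Npc2, Ppt1 and Atp6v0c. The difference of Ctsd was -0.94 ± 0.20 (adjusted p in limma 0.00369), and its levels were 2.29 and 2.48 on the untreated arrays. At 6 h Ctsd was 2.47, 2.25 and 1.48 with concentration 1, 1.54, 1.41 and 1.53 with 1/5, and 2.50, 1.65 and 1.37 with 1/25, and at 24 h 2.25, 2.65 and 2.22 with concentration 1, 2.06, 2.59 and 2.14 with 1/5, and 2.36, 2.55 and 2.44 with 1/25, again with no overlap between days. That of Atp6v0c was -0.87 ± 0.21 (adjusted p in limma 0.00813). That of Neu1 was -1.34 ± 0.42 (adjusted p in limma 0.0241), and its other probe gave -1.25. The remaining differences were -1.22 for Ctsz, -1.05 for Ctsc, -0.96 for Npc2, -0.88 for Ppt1 and -0.81 for Ctsb. Ctsb was saturated on 20 arrays, Atp6v0c on 7, Ctsd on 5 and Ppt1 on 2. Under quantile normalization Ctsk, Ctsd, Neu1, Ctsz and Ctsc kept the call, and Atp6v0c, Npc2, Ppt1 and Ctsb did not. Of 12 cardiomyocyte markers, 5 were called lower on day 2 and 0 higher (median -0.88), beside 17.2% of all genes lower and 15.1% higher. The mean of that list lay between 0.69 and 1.58 on day 1 arrays and between 0.49 and 1.08 on day 2 arrays. Of 9 fibroblast markers 3 were called lower (median -0.48). Macrophage and leukocyte markers had a median of 0.37 (1 of 12 called higher, 2 lower), the 3 endothelial markers tested one of 0.56, the 2 erythroid ones of 0.29 and the 5 smooth muscle ones of -0.54, with 0 called in the last 3 lists. The part of these cell types in the scan day difference of the members was not tested.

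**Figure D4:**
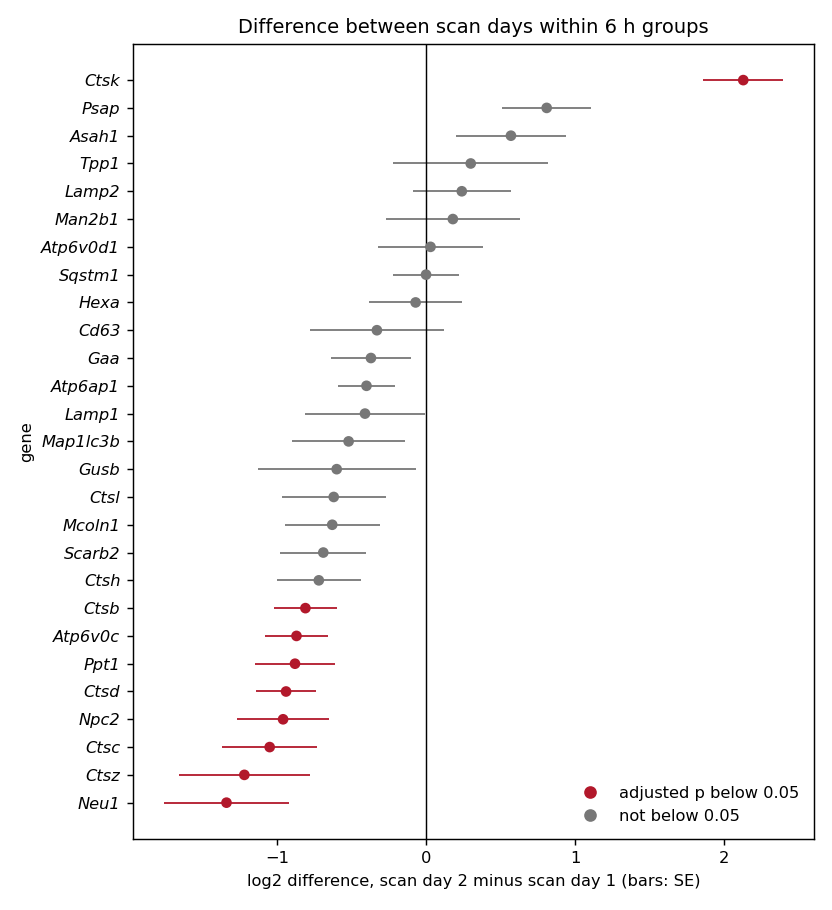
Log2 difference between scan day 2 and scan day 1 (horizontal axis, bars are SE) for the 27 members (vertical axis, in order), estimated from the 6 h groups that hold arrays of both days. Of the red points, which have an adjusted p below 0.05, Ctsk lies at 2.13 and the other 8 between -1.34 and -0.81.

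**Figure D5:**
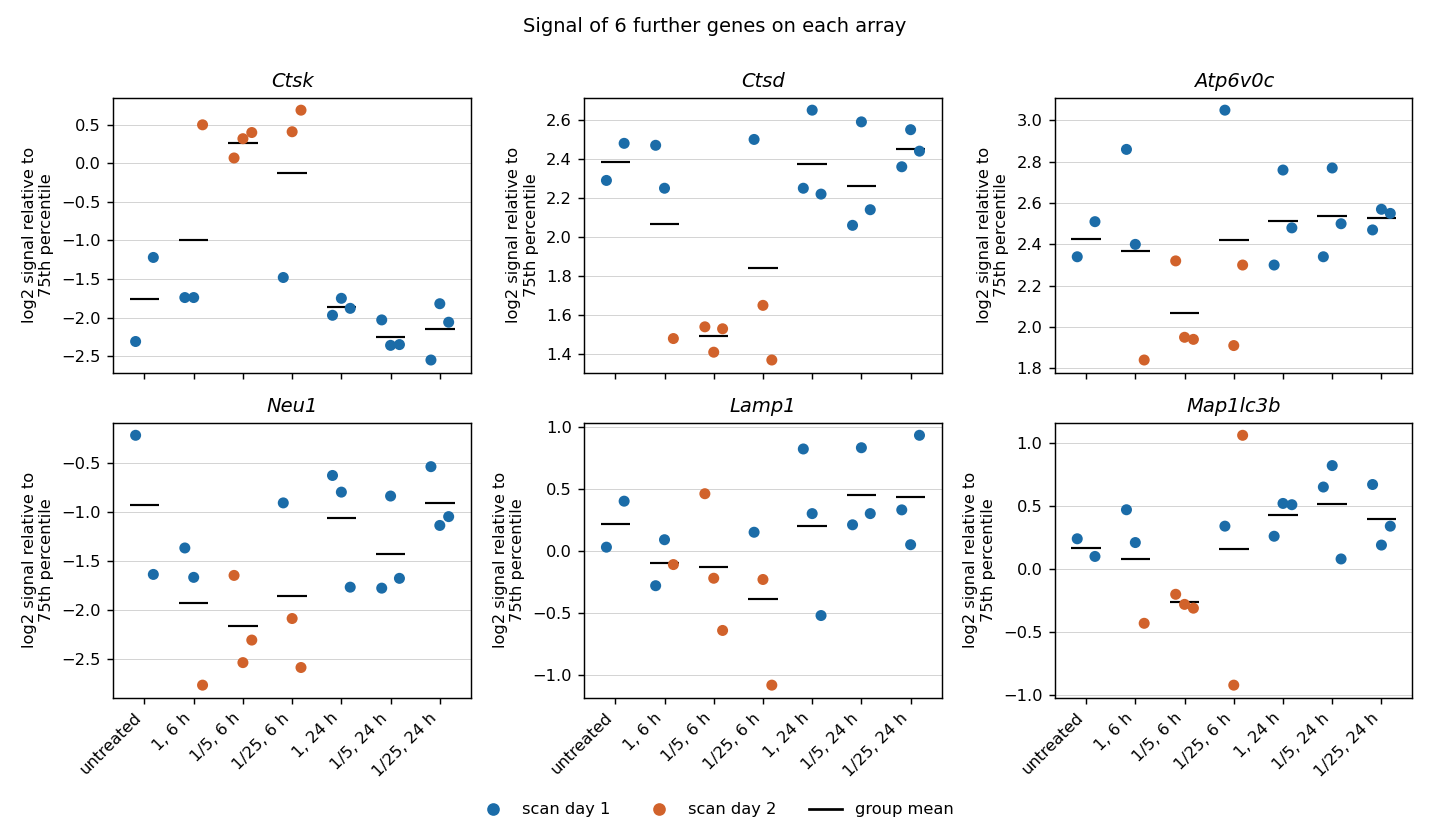
Log2 signal relative to the 75th percentile of the array (vertical axis) for Ctsk, Ctsd, Atp6v0c, Neu1, Lamp1 and Map1lc3b in the 7 groups (horizontal axis), 1 point for each array, coloured by scan day, with a bar at the group mean. For Ctsk the day 2 arrays lie above 0.07 or at it and all day 1 arrays below -1.22 or at it, and for Ctsd the order is turned.

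The names that were not found included 6 that the array carries under an older symbol, matched through RefSeq synonyms and therefore outside the rule: Lipa (Lip1), Ctsa (Ppgb), Tfeb (Tcfeb), Naglu (RGD1564228), Atp6v1a (Atp6v1a1) and Npc1 (Cdig2). Naglu, the heparan sulfate glucosaminidase, fell by 1.70 ± 0.47 with concentration 1 at 6 h (adjusted p in limma 0.039), and its scan day difference was 1.36. Its changes were -1.69 with 1/5 and -1.53 with 1/25 at 6 h, and -1.43, -1.37 and -1.11 at 24 h, none of them called. The Naglu change at concentration 1 for 6 h was -1.80 within scan day 1 (adjusted p in limma 0.046) and -1.24 without the block (0.252). Without the block the Naglu changes at 6 h were only -0.33 with 1/5 and -0.62 with 1/25 (adjusted p in limma 0.757 and 0.497). Npc1, the membrane cholesterol transporter, had a change of -1.21 ± 0.43 with 1/25 at 6 h (adjusted p in limma 0.0765). That change was -1.69 within scan day 1, which holds only 1 array of the group. Without the block it was -0.89 (adjusted p in limma 0.146). The dimmer probe of Npc1 gave -0.93 (adjusted p in limma 0.334 over all probes). For Tfeb, the transcription factor named above, the brighter of 2 probes under the older symbol had changes of -0.34, 0.13 and -0.11 at 6 h and 0.17, 0.39 and 0.00 at 24 h, none called. This probe was well above background on all 20 arrays and saturated on 2, and the other was well above background on 1 array and was not tested. Whether the brighter probe measures Tfeb was not tested.

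Beyond the list, 118 further names of lysosome and autophagy genes were looked up, of which 88 were on the array and 79 tested. With concentration 1 at 6 h, 1 was called higher and 1 lower, with 1/5 none, and with 1/25 1 higher and 2 lower, beside 8.21%, 1.14% and 11.5% of all genes called in either direction. At 24 h the counts were 0 for concentration 1, and 1 higher and 0 lower each for 1/5 and 1/25, beside 0.465%, 1.42% and 0.857% of all genes. The gene called higher was Ctss in each case, a cathepsin of macrophages and other antigen-presenting cells, with 2.34 ± 0.40 and 2.27 ± 0.45 at 6 h and 2.30 and 2.10 at 24 h. Atg7, the enzyme that primes LC3 for lipid coupling, fell by 1.41 ± 0.36 with concentration 1 (adjusted p in limma 0.0294) and by 1.34 ± 0.41 with 1/25 (0.0455) at 6 h, and without the block it was not called (adjusted p in limma 0.129 and 0.102). Arsa, the arylsulfatase that takes sulfatide apart with the help of a saposin, fell by 2.04 ± 0.53 with 1/25 at 6 h (adjusted p in limma 0.0263), with an estimate of -2.41 without the block (0.0158). Median changes of these 79 genes from untreated lay between -0.08 and 0.12. Between scan days 6 of the 79 were called higher and 10 lower, beside 32.3% of all genes. Of 12 macrophage and leukocyte markers tested, Ctss among them, 2 were called higher and 1 lower with concentration 1 at 6 h, and 2 higher and 2 lower with 1/25. The higher ones were Ctss and the mannose receptor Mrc1, and the lower ones were Cd163, and Cd14 with 1/25. The mean level of that list ran from -1.57 to -1.25 on untreated arrays, from -1.51 to -1.43 with concentration 1, from -1.38 to -1.34 with 1/5 and from -1.79 to -1.50 with 1/25 at 6 h. At 24 h 1, 2 and 2 of these markers were called higher with 1, 1/5 and 1/25 and 0 lower, namely Mrc1 in each group and Ctss with 1/5 and 1/25. The mean level of the list at 24 h ran from -1.27 to -1.20 with concentration 1, from -1.17 to -1.04 with 1/5 and from -1.16 to -1.0 with 1/25, the last pair of groups lying wholly above the untreated arrays. The median change of the 12 markers at 24 h was 0.22, 0.16 and 0.28 with 1, 1/5 and 1/25. In each group 7 of the 12 were above 0. The part of this list in the Psap, Naglu and Atg7 values was not tested.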

How the data were processed

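RNA was measured on 20 single-colour arrays, and the names of the genes, the groups and the lists were chosen with earlier results of these data known. The scanner files deposited by the authors hold spot intensity on a linear scale, extracted with Agilent Feature Extraction 9.5.3.1 and placed on build rn3, per the file headers. The value table deposited by the authors holds a linear ratio: the processed signal over the array median and over the mean of the untreated arrays, as checked against the scanner files (99.7% of 820240 values within 0.05 on the log2 scale, r = 0.9984). Its direction and centring follow from that check, and its column medians ran from 0.826 to 1.27.

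Processed signals were taken to log2 and the 75th percentile of the array was subtracted. Outlier spots were left out, spots of a probe averaged, and probes kept where all arrays of some group read well above background. The probe with the highest mean signal stood for a gene. All arrays were fitted in limma 3.58.1 (R 4.3.3) with 7 group means and scan day as a block (12 residual degrees of freedom, 15.3 after moderation). Tests are two-sided, over 13 comparisons. Named in detail were the 12 members with the smallest adjusted p in a comparison of treatment, concentration or time, and Tfeb, Sqstm1, Map1lc3b and Lamp1. The other genes were given by ranges, besides those that passed under another setting and those called between scan days. In simulated data for concentration 1 at 6 h against untreated, with 200 of 27134 genes changed, 1.5% of log2 changes of 1 and 67% of changes of 2 were called, and 8.22% of the calls at 2 were false. The real comparison called 2279 of 27757 genes, so these recovered shares do not carry over to it directly. Promoters and synonyms come from RefSeq (GRCr8). Alternatives were 9 settings and leaving out each array in turn. Figures were drawn with matplotlib 3.10.9.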

Additional observations from a re-analysis of the deposited data

How the results depend on the processing

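The Psap changes with concentration 1 and 1/25 at 6 h and the scan day differences of 9 members kept their sign under each of the 9 other settings that gave a value and with each array left out. The median change of the members did not: without the scan day block it went from 0.10 to -0.36 with 1/5 and from 0.08 to -0.48 with 1/25 at 6 h. With concentration 1 at 6 h, where 1 member (Psap) was called against untreated, 0 were called without the scan day block, within scan day 1, with a replicate block, with normexp background correction, from the deposited value table, without the filter on dim probes, and without both arrays that stood apart (the first untreated array and the third of 1/25 at 6 h, a setting chosen after seeing the data). The Psap change there lay between -1.29 and -0.86 and its adjusted p in limma between 0.0511 and 0.208. With 1/25 at 6 h the count of 1 became 2 without the scan day block (Gaa and Mcoln1, with Psap lost). It became 2 with slide as a random block (Psap and Ctsc) and 2 with a replicate block (Psap and Mcoln1). From the value table it became 4 (Psap lower, and Atp6v0c, Ctsb and Ctsc higher). Over all genes the calls went from 3201 to 1665, 3657, 2955 and 5824 in the same order. Scan day 1 holds only 1 array of this group, and within it Psap changed by -1.52 and Tpp1 by -2.02. Without both arrays that stood apart, which leaves 1 untreated array, the Psap change was -1.05. With 1/5 at 24 h the count of 0 became 1 (Gaa) with slide as a random block and 1 (Gaa) with normexp. For 24 h against 6 h with 1/5 it became 1 (Ctsk) without the scan day block. Between scan days the count of 9 became 5 under quantile normalization, 6 with a replicate block, 8 without the filter on dim probes, 10 with slide as a random block, 10 with normexp, 11 from the value table and 12 without both arrays that stood apart. The cause of these moves was not tested. Leaving out each array in turn gave 0 to 3 members with concentration 1 at 6 h (Psap, Ctsc and Sqstm1 without the second untreated array), 0 to 6 with 1/25 at 6 h (Psap, Ctsb, Ctsc, Gaa, Ppt1 and Tpp1 without the second array of that group), 0 to 1 with 1/5 at 24 h, 0 to 2 for 24 h against 6 h at concentration 1 (Hexa and Atp6v0d1, only without the third array of concentration 1 at 24 h), and 2 to 11 between scan days (2 without the first array of 1/25 at 6 h). In the value table the median of all genes moved to between 0.25 and 0.44 against untreated and that of the members to between 0.36 and 0.62. Arrays with the same replicate number did not deviate together on average (mean r = 0.00 over 57 pairs, with group means removed). Single pairs ran from -0.44 to 0.46, and the mean was -0.02 with scan day removed too. The labels do not say what the replicate numbers share, so these values cannot tell whether the design was paired by replicate. The correlation within slides was -0.0692 once scan day was in the fit. Only 2 untreated arrays were used, and saturation may distort the differences of Ctsb, Atp6ap1 and Atp6v0c in either direction. Changes of 1 on the log2 scale were mostly missed in simulated data with 200 of 27134 genes changed. Many more genes were called in the real comparison with concentration 1 at 6 h, so the share missed there is not known.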
